A study of Mus musculus with 96 samples.

Results

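The genes described here encode the proteins that fuse vesicles with membranes: the synaptotagmins (Syt), the syntaxins (Stx), the syntaxin binding proteins (Stxbp), the vesicle-associated membrane proteins (Vamp), the complexins (Cplx) and the genes Snap23, Snap25, Snap29 and Snap47. They were taken as every protein-coding gene of GENCODE M21 whose symbol is one of the first 5 family names followed by a digit, plus the 4 Snap genes. The annotation holds 55 such genes, and 52 of them were among the 19918 genes measured, made up of 16 Syt, 14 Stx, 7 Stxbp, 7 Vamp, 4 Snap and 4 Cplx genes. Stx19, Syt8 and Vamp7 were not analysed here. The rule used gene names and no measured value, but the families were chosen with earlier results of these data known.

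RNA sequencing covered the nucleus accumbens (NAc), the ventral part of the striatum, and the prefrontal cortex (PFC) of the same 48 mice, so each region has 48 libraries. The mice were of the FCG model, built to vary gonads independently of the sex chromosomes, in which Sry, the testis-determining gene, is missing from the Y chromosome (written Y-) and is carried by some animals as a transgene on an autosome. The 8 groups were XX with stress (6 animals), XX control (5), XXSry with stress (6), XXSry control (6), XY- with stress (6), XY- control (7), XY-Sry with stress (6) and XY-Sry control (6). XXSry and XY-Sry animals have testes, while XX and XY- animals have ovaries. Stress was subchronic variable stress, with restraint for 1 hour on 3 occasions spread over 6 days, and controls were left unstressed. The contrast of testes with ovaries also contrasts carriers of the Sry transgene with non-carriers, and these cannot be told apart. The sources used here give neither age nor strain background.

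As background, transmitter release is driven by a SNARE complex that zips together from a vesicle protein (Vamp1 or Vamp2) and plasma membrane proteins (a neuronal syntaxin such as Stx1a, with Snap25). Complexins clamp and then assist the partly zipped complex, and synaptotagmins on the vesicle trigger fusion when calcium enters. Other members of the same families serve fusion in endosomes, the Golgi, autophagosomes and the plasma membrane of cells that are not neurons. The PFC is built mainly of glutamate neurons, and the NAc mainly of GABA-releasing projection neurons.

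Total counts ran from 45.9 to 120.8 M per library in the NAc and from 67.6 to 104.4 M in the PFC (M, 1e6 counts). The labels give 3 cohorts, which are uneven over treatment: cohort 2 held 2 stressed and 10 control animals, and cohort 3 held 10 stressed and 3 control animals. They are uneven over genotype too. Cohort 3 held 0 XX and 0 XXSry controls, and cohort 2 held 0 stressed XXSry and 0 stressed XY- animals. The regions were told apart by their markers. The summed level of the 10 striatal projection neuron markers was 2207 to 6261 CPM (counts in each 1e6 of a library's total, corrected for its composition) in the NAc and 268 to 411 CPM in the PFC. The 10 cortical excitatory neuron markers summed to 203 to 1095 CPM in the NAc and 2066 to 2520.0 CPM in the PFC, so cortical marker RNA was present in every NAc library and varied widely there. Foxp2, one of the 10, went the other way (64.4 to 145 CPM in the NAc and 5.65 to 21.1 CPM in the PFC), and the other 9 summed to 78.4 to 1008 CPM in the NAc and 2056 to 2499 CPM in the PFC. Their main marker, Slc17a7, which loads glutamate into vesicles, ran from 21.5 to 612 CPM in the NAc and from 1269 to 1650 CPM in the PFC. The 8 oligodendrocyte markers summed to 3584 to 7816 CPM in the NAc and 707 to 1691 CPM in the PFC. In whole tissue, fewer cells of a type and less RNA per cell cannot be told apart.

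The families spanned more than 4 orders of magnitude in level. On a scale of CPM per kilobase of exon, which allows genes to be compared, Snap25 was the highest member in both regions, at 255 ± 37.2 in the NAc and 568 ± 37.5 in the PFC (SD, n = 48 libraries each). Other high members of the PFC were Vamp2 (353 ± 18.7), Syt1 (317 ± 13.9), Cplx1 (222 ± 20.7), Cplx2 (193 ± 15.8) and Syt11 (168 ± 6.71). The PFC libraries of Snap25 did not overlap with those of Vamp2, while those of Vamp2 overlapped with those of Syt1, and those of Cplx2 with both Cplx1 and Syt11. In the NAc these genes ranked Snap25, Cplx2 (201 ± 20.2), Vamp2 (198 ± 15.1), Syt1 (181 ± 18.8), Syt11 (146 ± 8.92) and Cplx1 (135 ± 18.6), and each of these overlapped with the next. Cplx2 and Vamp2 differed by 0.193 SD in the NAc and were not separable. Syt11, a synaptotagmin that does not bind calcium, had the highest level of its family after Syt1 in both regions.

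Summed over the members of each family, the same scale gave 581 ± 33.5 in the NAc and 831 ± 25 in the PFC for the 16 synaptotagmins (SD, n = 48 each), without overlap between regions. The 4 Snap genes summed to 346 ± 41.2 in the NAc and 702 ± 39.2 in the PFC, and Snap25 made up 73.5% of that sum in the NAc and 80.8% in the PFC. The 7 Vamp genes summed to 237 ± 14.2 in the NAc and 390.2 ± 18 in the PFC, with Vamp2 at 83.3% and 90.6% of the sum. The 14 syntaxins summed to 256 ± 12.2 in the NAc and 445 ± 17.8 in the PFC, without overlap. The complexin sums were the closest, at 341 ± 30.3 in the NAc and 418 ± 33.2 in the PFC, and their libraries overlapped.

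At the low end, Stx11, known from cytotoxic immune cells, and Cplx4, known from retinal ribbon synapses, were near the limit of detection. Cplx4 had 562 counts in all NAc libraries together and 103 in all PFC libraries, with 0 counts in 1 NAc library and 14 PFC libraries. Stx11 had 364 counts over the NAc libraries and 384 over the PFC libraries. Vamp9, Vamp5 and Syt15 also stayed below 1 CPM per kilobase in every library.

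**Figure D1:**
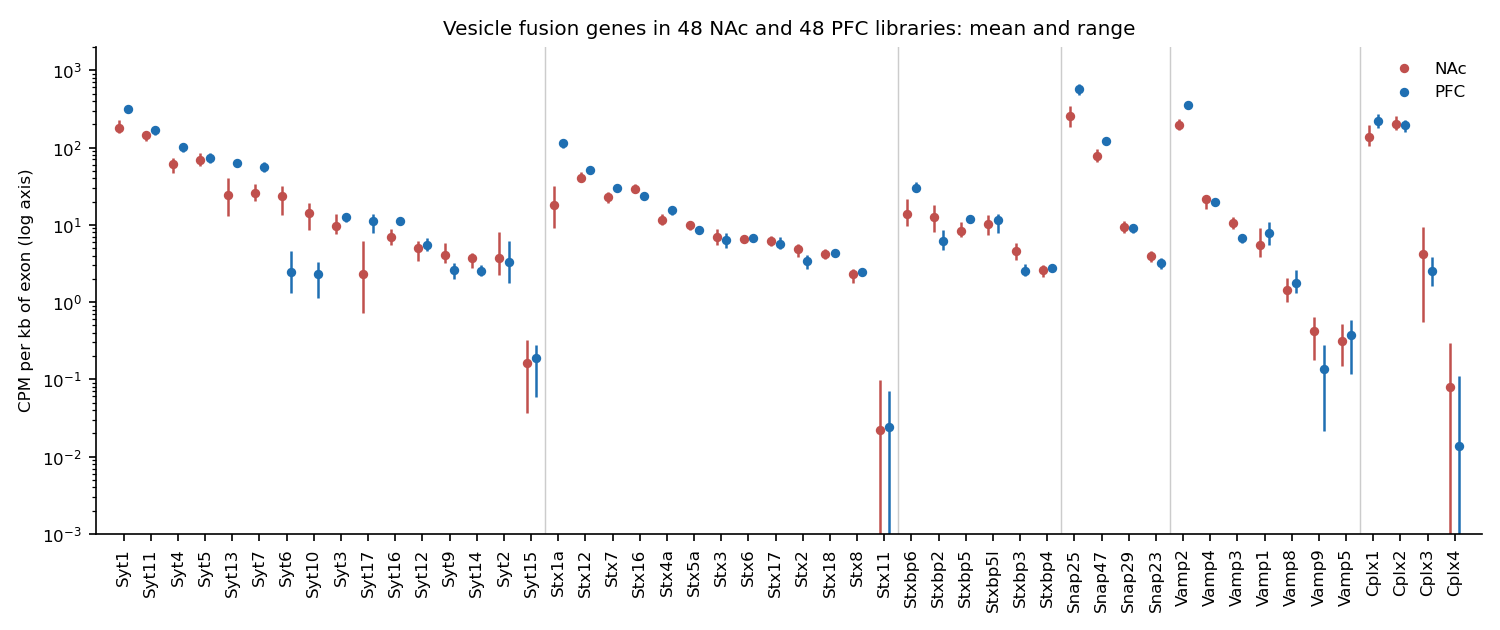
Level of 50 of the genes in 48 NAc libraries (left, red) and 48 PFC libraries (right, blue), as CPM per kilobase of exon on a log axis; points are means and lines run from the lowest to the highest library, and lines that reach the lower edge include libraries at 0 for Stx11 and Cplx4. Snap25 is highest in both regions, and Syt6 and Syt10 lie higher in the NAc while Stx1a and Syt17 lie lower there.

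The largest differences in these families were between the regions. In one edgeR quasi-likelihood fit over all 96 libraries, with the animal as a block, 50 of the 52 genes passed an adjusted p of 0.05 between NAc and PFC: 19 were higher in the NAc and 31 lower. Nearly any gene passed in this comparison, since 85.9% of the 19918 genes tested were called, 44% higher and 41.9% lower. Being called therefore says little about a member. By direction, more members were lower than higher, while over all genes 8770 were higher and 8343 lower. That difference in direction was not tested. Of the genes called, 5 were at least 2-fold higher in the NAc and 7 at least 2-fold lower, against 10.9% and 9.39% of all genes. The median log2 fold change (NAc minus PFC) was -0.15 for the 52 genes and 0.02 for all genes. By family, 11 of 16 synaptotagmins were lower in the NAc and 4 higher, and 8 of 14 syntaxins were lower and 5 higher. Among the Stxbp genes 5 of 7 were lower and 2 higher, and among the Vamp genes 4 of 7 were lower and 3 higher. The Snap genes split evenly, 2 lower and 2 higher, and of the complexins 1 was lower and 3 were higher.

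**Figure D2:**
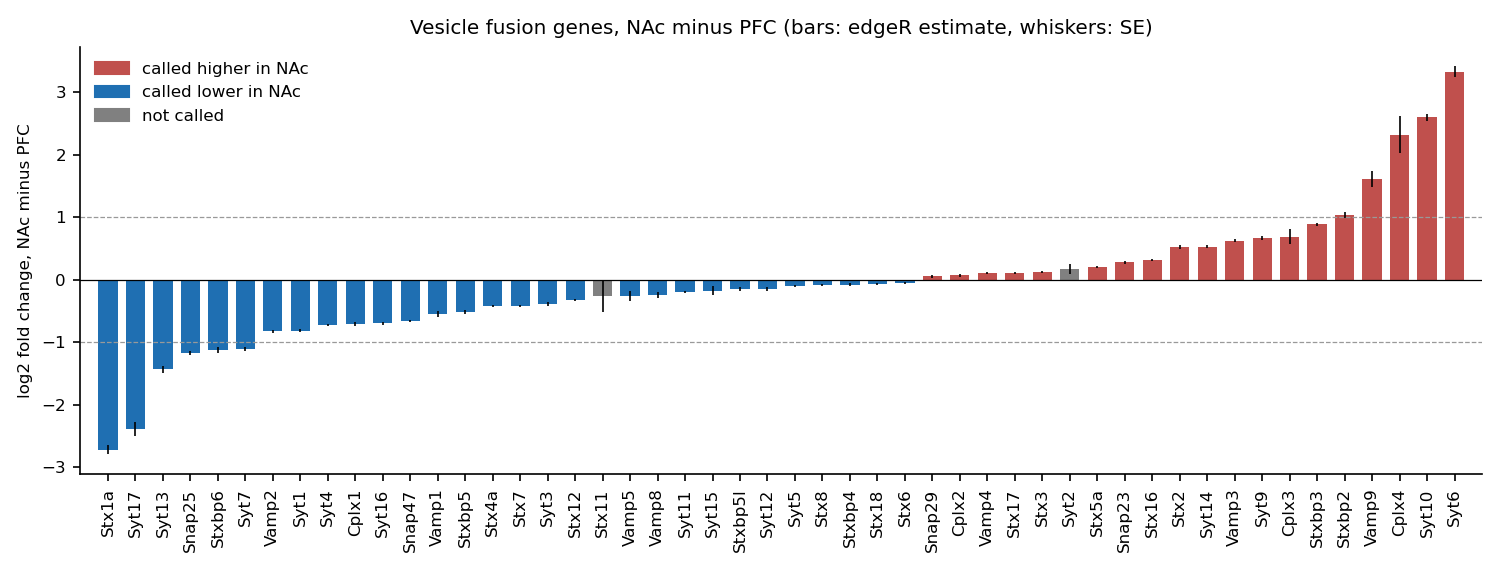
Log2 fold change (NAc minus PFC) of 50 of the genes from the edgeR fit, with whiskers of 1 SE; red bars were called higher in the NAc, blue bars called lower, and grey bars not called, and dashed lines mark a 2-fold difference. Stx1a (-2.72) and Syt17 (-2.39) stand at the low end and Syt10 (2.60) and Syt6 (3.33) at the high end.

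The genes at the ends of this range were Stx1a, with the lowest log2 fold change, and Syt6 and Syt10, with the highest. Their promoters are shown because these 3 genes lie at the ends of the range. Each window runs from 250 bases before to 50 bases after a transcription start listed by RefSeq on GRCm38.p6, and capitals mark the GC box, GGGCGG on the strand shown or CCGCCC where it lies on the other strand. On GRCm38 the Stx1a gene lies at chr5:135023482-135051100, Syt6 at chr3:103575231-103645569 and Syt10 at chr15:89782393-89841860, the last on the minus strand. The Stx1a window is chr5:135023232-135023531 on the plus strand, with 1 window listed for the gene. The Syt6 window is chr3:103574995-103575294 on the plus strand, the first of 3 listed. The Syt10 window is chr15:89841811-89842110 on the minus strand, with 1 listed.
Stx1a: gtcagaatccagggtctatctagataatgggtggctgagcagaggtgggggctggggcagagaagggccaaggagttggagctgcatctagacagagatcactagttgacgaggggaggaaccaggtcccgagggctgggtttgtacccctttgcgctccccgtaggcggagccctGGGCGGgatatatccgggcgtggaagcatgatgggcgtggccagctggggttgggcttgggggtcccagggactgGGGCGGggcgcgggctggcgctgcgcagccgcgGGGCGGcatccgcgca
Syt6: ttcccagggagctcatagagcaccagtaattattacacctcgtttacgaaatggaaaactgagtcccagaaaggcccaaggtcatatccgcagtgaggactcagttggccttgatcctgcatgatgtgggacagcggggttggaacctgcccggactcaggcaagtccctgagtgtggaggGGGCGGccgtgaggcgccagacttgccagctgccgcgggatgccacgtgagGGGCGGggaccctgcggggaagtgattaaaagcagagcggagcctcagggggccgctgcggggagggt
Syt10: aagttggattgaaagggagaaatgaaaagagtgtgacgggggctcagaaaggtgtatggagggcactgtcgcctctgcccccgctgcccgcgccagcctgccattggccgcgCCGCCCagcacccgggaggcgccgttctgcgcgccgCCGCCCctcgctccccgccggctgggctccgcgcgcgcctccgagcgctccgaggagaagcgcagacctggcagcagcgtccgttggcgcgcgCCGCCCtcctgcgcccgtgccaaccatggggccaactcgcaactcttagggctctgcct
The Stx1a and Syt10 windows hold 3 GC boxes each and the Syt6 window holds 2, so the box is found at both ends of the region difference. A RefSeq window was matched by gene symbol for 40 of the 52 genes, and the first window held a GC box in 29 of them (72.5%), compared with 35.9% of the 27025 genes with a window. Those 27025 genes were not limited to protein-coding or measured genes, while the 40 are all both. The 2 shares are therefore of unlike sets, and their difference was not tested. A match is a run of letters and was not tested as a binding site.

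Among the core SNARE genes, each of the main neuronal forms was lower in the NAc. Stx1a had a lowest, median and highest level of 23.9, 46.3 and 84.4 CPM in the NAc, against 264, 301 and 335 CPM in the PFC, and its log2 fold change (NAc minus PFC) was -2.72 (SE 0.0775, adjusted p = 3.9e-30). No NAc library reached the lowest PFC library, and the gene was lower in the NAc of all 48 animals. Snap25, which pairs with it in the complex, stood at 1237, 1751 and 2353 CPM in the NAc and 3243, 3828 and 4474 CPM in the PFC (log2 fold change -1.17, SE 0.0335, adjusted p = 9.75e-33). The regions did not overlap. Vamp2, the main vesicle SNARE, stood at 634, 748 and 895 CPM in the NAc and 1185, 1339.9 and 1512 CPM in the PFC, again without overlap (log2 fold change -0.83, SE 0.0224). Vamp1, which serves release in fast-firing neurons, was lower by 0.55 on the log2 scale (SE 0.052), with levels of 39.1 to 91.2 CPM in the NAc and 56.3 to 112 CPM in the PFC that overlapped. On the scale of CPM per kilobase of exon, the ratio of Vamp1 to Vamp2 was 0.0272 in the NAc and 0.0223 in the PFC, higher in the NAc of 35 of 48 animals (mean log2 difference 0.29 ± 0.37, SD, adjusted p = 4e-05 over 5 ratios, permutation test by sign flips). Snap23, the form used outside neurons, moved the other way from Snap25 (log2 fold change 0.28, SE 0.0245), and the ratio of Snap25 to Snap23 per kilobase of exon was 64.5 in the NAc and 175 in the PFC, lower in the NAc of all 48 animals.

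The genes for syntaxin binding proteins moved in both directions. Stxbp6, also called amisyn, which can take the place of a vesicle SNARE in the complex, was lower in the NAc by 1.13 on the log2 scale (SE 0.0491), at 51.7 to 116 CPM in the NAc and 139 to 187 CPM in the PFC. Stxbp5, or tomosyn, an inhibitor of SNARE assembly, had a log2 fold change of -0.52 (SE 0.027), and its relative Stxbp5l one of -0.16 (SE 0.031). Stxbp2 and Stxbp3, known mainly from other cells, were higher in the NAc. Stxbp2 stood at 33.1, 50.5 and 75.9 CPM in the NAc and 19.4, 24.9 and 35.6 CPM in the PFC (log2 fold change 1.04, SE 0.047). The most extreme libraries overlapped, but all 48 animals had more in the NAc. Stxbp3, the partner of plasma membrane syntaxins outside the synapse, stood at 18.5 to 31.4 CPM in the NAc and 11.5 to 16.5 CPM in the PFC, without overlap (log2 fold change 0.88, SE 0.028).

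Among the synaptotagmins, log2 fold changes between the regions ran from -2.39 for Syt17 to 3.33 for Syt6. Syt1, the fast calcium sensor of most forebrain synapses, averaged 1513 ± 157 CPM in the NAc and 2640 ± 116 CPM in the PFC (SD, n = 48 each), with no overlap and a log2 fold change of -0.82 (SE 0.0251, adjusted p = 1.4e-31). Syt7, the high-affinity sensor of delayed release and facilitation, stood at 150 to 249 CPM in the NAc and 363 to 484 CPM in the PFC (log2 fold change -1.12, SE 0.0321). Syt13, which does not bind calcium, stood at 49.3, 89.4 and 153 CPM in the NAc and 216, 237 and 259 CPM in the PFC (log2 fold change -1.44, SE 0.0555). Syt17 stood at 3.8, 10.4 and 32.2 CPM in the NAc and 41.1, 59.2 and 70.9 CPM in the PFC, a log2 fold change of -2.39 (SE 0.115, adjusted p = 5.45e-22). Neither of these overlapped between regions, but relative to its mean Syt17 spread more widely among NAc than among PFC libraries (SD 6.05 and 5.88 CPM around means of 12.1 and 58.3 CPM).

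Syt6 and Syt10 are calcium-binding forms that pair through disulfide bonds, and Syt10 is known from the regulated secretion of a growth factor in olfactory bulb neurons. Syt6 stood at 77.1, 141 and 183 CPM in the NAc and 7.58, 13.4 and 26.8 CPM in the PFC, a log2 fold change of 3.33 (SE 0.0846, adjusted p = 9.44e-32). The lowest NAc library, XY- stress replicate 26, was also the one with the lowest striatal marker sum (2207 CPM), and it still lay above every PFC library. Exons of Syt6 overlap a pseudogene on the opposite strand, so part of its count is uncertain. Syt10 stood at 16, 26.2 and 35.7 CPM in the NAc and 2.11, 4.17 and 6.08 CPM in the PFC, a log2 fold change of 2.60 (SE 0.0531, adjusted p = 2.48e-37), without overlap. Syt9, a fast sensor in some limbic and striatal neurons, was higher in the NAc of all 48 animals (12.8 to 23 CPM in the NAc and 7.96 to 12.7 CPM in the PFC, log2 fold change 0.66, SE 0.0359). Syt14 was also higher in all 48 animals (log2 fold change 0.53, SE 0.0225).

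Syt2, the fast sensor of fast-spiking interneurons in the cortex, was not called between the regions. It stood at 17, 26.3 and 61.3 CPM in the NAc and 13.6, 24.4 and 46.8 CPM in the PFC, and the log2 fold change of 0.16 (SE 0.0788) had an adjusted p of 0.0511. DESeq2 placed it just past the threshold (adjusted p = 0.0466). With Syt1 lower and Syt2 at a like level, the ratio of Syt1 to Syt2 per kilobase of exon was 50.6 in the NAc and 98.3 in the PFC, lower in the NAc of 45 of 48 animals (adjusted p = 2.5e-05, permutation test).

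**Figure D3:**
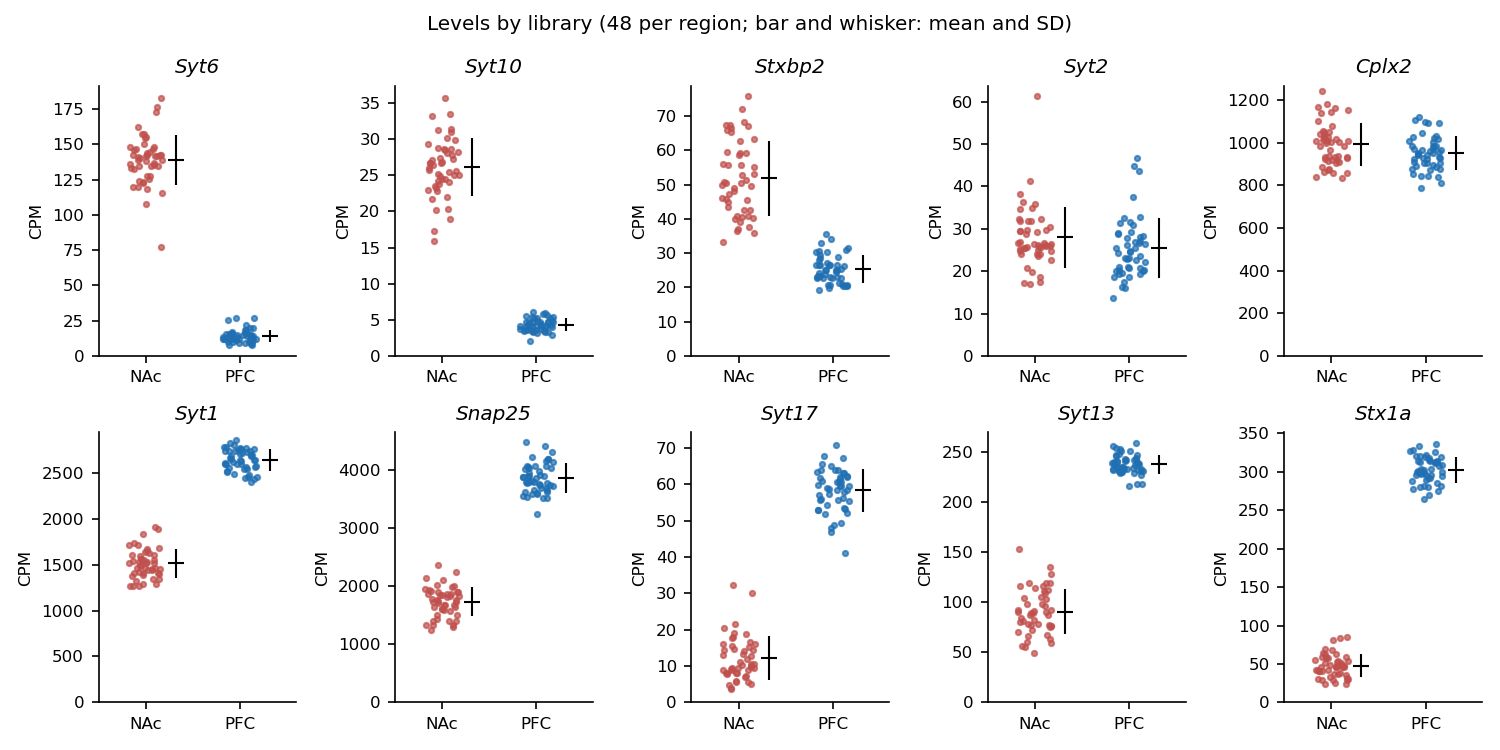
CPM of 10 of the genes in each NAc library (left, red) and PFC library (right, blue), with the mean and SD of each region beside the points; the axes start at 0. Syt6, Syt10 and Stxbp2 lie higher in the NAc, Syt2 and Cplx2 overlap, and Syt1, Snap25, Syt17, Syt13 and Stx1a lie lower in the NAc.

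The complexins split by form. Cplx1 stood at 227, 291 and 433 CPM in the NAc and 387, 486 and 596 CPM in the PFC, lower in the NAc of all 48 animals although the extreme libraries overlapped (log2 fold change -0.72, SE 0.0333). Cplx2 stood at 834, 1001 and 1243 CPM in the NAc and 788, 947 and 1122 CPM in the PFC. That is a log2 fold change of 0.07 (SE 0.0232, adjusted p = 0.00786) with 32 of 48 animals higher in the NAc, and it was -0.0062 in the animals of cohort 3 alone and not called in cohort 1 alone (0.05, SE 0.0377). Per kilobase of exon, the ratio of Cplx1 to Cplx2 was 0.667 in the NAc and 1.15 in the PFC, lower in the NAc of all 48 animals, and on that scale the PFC libraries of the 2 genes overlapped. Cplx3, a complexin of retinal ribbon synapses and of the deepest cortical layer, stood at 1.64, 13 and 27.8 CPM in the NAc and 4.83, 7.18 and 11.3 CPM in the PFC (log2 fold change 0.69, SE 0.123). Its NAc libraries enclosed the whole PFC range, and in the animals of cohort 1 alone it was not called (0.34, SE 0.231). Within the NAc the level of Cplx3 rose with cortical marker RNA (r = 0.655), as described below. Cplx4 and Vamp9 were called higher in the NAc as well (2.32, SE 0.295, and 1.61, SE 0.128), at levels of at most 0.581 and 0.775 CPM, and Cplx4 was not called in the animals of cohort 2 alone (1.5).

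Members that act mainly away from the synaptic vesicle were called in both directions. Vamp3, the cellubrevin of recycling endosomes, stood at 25.5 to 36.9 CPM in the NAc and 16.8 to 21.9 CPM in the PFC, without overlap (log2 fold change 0.62, SE 0.0273). Stx2, at the plasma membrane of many cells, and Stx16, in the trans-Golgi network, were higher in the NAc of all 48 animals (0.52, SE 0.027, and 0.32, SE 0.0147). The endosomal syntaxins Stx7 and Stx12 were lower in the NAc of all 48 animals (-0.42, SE 0.0203, and -0.33, SE 0.0171). Stx5a of the Golgi, Stx17 of autophagosomes, Stx3, Vamp4 and Snap29 had log2 fold changes between 0.05 and 0.20, while Stx6, Stx8, Stx18 and Stxbp4 lay between -0.09 and -0.06. Each of these small differences was called. Snap47 (-0.67, SE 0.0196) and Syt4 (-0.73, SE 0.0229), a synaptotagmin of dense-core vesicles, did not overlap between regions, and exons of both overlap a gene on the opposite strand, as do exons of Stx4a, Stx18, Snap29 and Syt7. Strand use in counting is not stated, so these counts are uncertain. Other members were lower in the NAc, namely Syt16 (-0.70), Stx4a (-0.42) and Syt3 (-0.39) by the most, then Vamp5 (-0.26), Vamp8 (-0.25), Syt11 (-0.20), Syt15 (-0.18), Syt12 (-0.15) and Syt5 (-0.10). Stx11 was not called (-0.27, SE 0.259, adjusted p = 0.331).

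Several of these genes varied within the NAc together with cortical marker RNA. Over the 48 NAc libraries, log2 CPM of Stx1a rose with the mean log2 CPM of the 10 cortical excitatory markers (Pearson r = 0.888, Spearman rho = 0.907), and r was 0.890 without the 2 libraries farthest from the median score and 0.90, 0.80 and 0.90 within cohorts 1, 2 and 3. Of the 52 genes, 18 were positively and 3 negatively related to the score at an adjusted p under 0.05 (34.6% and 5.77%), against 10.9% and 6.93% of 19908 genes (permutation test, 100000 draws, adjusted over all genes). Each of the 21 kept its sign in all 3 cohorts. The next strongest were Snap25 (r = 0.864), Syt13 (0.828), Syt17 (0.816), Syt1 (0.808) and Vamp2 (0.751), each at an adjusted p of 0.00021, the smallest that these draws gave. Cplx3, which was called higher in the NAc than in the PFC, was also positive (r = 0.655, rho = 0.517, adjusted p = 0.00037, permutation test). Without the 2 farthest libraries its r was 0.532. The negative ones were Syt14 (-0.423), Vamp5 (-0.386) and Stx5a (-0.383), and Stx5a came to -0.302 without the 2 farthest libraries. Syt6 had r = -0.329 (adjusted p = 0.11 over all genes, permutation test) and rho = -0.550 (adjusted p = 0.00017 over the 52 genes, permutation test). Its r was -0.386, -0.584 and -0.257 within cohorts 1, 2 and 3, so by rank Syt6 fell as the score rose. Cplx2 had r = 0.158. With Foxp2 left out of the score, 18 genes were positive and 2 negative, Stx5a no longer among them.

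The library with the highest score, XY-Sry stress replicate 7, had 69.4 CPM of Stx1a, 2353 CPM of Snap25 and 13.2 CPM of Syt17. The library with the lowest, XXSry control replicate 27, had 23.9 CPM of Stx1a, 1330.0 CPM of Snap25 and 3.8 CPM of Syt17. Cplx3 had 10.65 CPM in the library with the highest score. In the library with the lowest score it had 1.71 CPM, below every PFC library (lowest 4.83 CPM). Without the 12 animals whose NAc held the most cortical marker RNA, the difference between NAc and PFC was larger for each of the 10 genes with the lowest log2 fold changes. Each of these 10 genes rose with the cortical score in the NAc. Leaving out the animals highest in that score therefore tends to widen their difference, and this result is no separate test. The log2 fold change was -2.90 for Stx1a, -2.66 for Syt17, -1.55 for Syt13 and -1.23 for Snap25, and it was 3.33 for Syt6 and 2.56 for Syt10. The counts called were again 50 in all, 19 higher and 31 lower. That setting was chosen after the marker levels were seen.

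**Figure D4:**
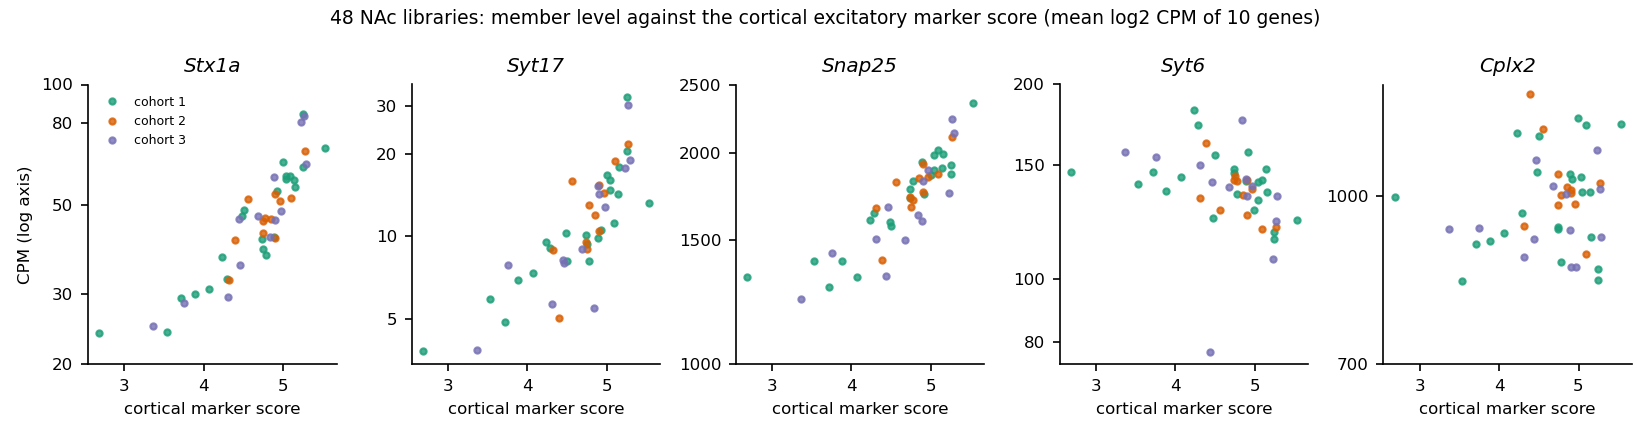
CPM (log axes) of 5 genes in the 48 NAc libraries against the cortical excitatory marker score, the mean log2 CPM of 10 marker genes, coloured by cohort. Stx1a (r = 0.888), Syt17 (0.816) and Snap25 (0.864) rise with the score in each cohort, Syt6 does not rise (-0.329) and Cplx2 shows little relation (0.158).

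Oligodendrocyte RNA, far higher in the NAc, moved with 2 of the genes that were higher there. Over the NAc libraries, Stxbp3 had r = 0.799 and Vamp3 r = 0.771 with the mean log2 CPM of the 8 oligodendrocyte markers (adjusted p = 0.00068 each over all genes, permutation test), with rho of 0.784 and 0.803. Without the 2 farthest libraries r was 0.776 and 0.758, and within the 3 cohorts it was 0.678 to 0.820 for Stxbp3 and 0.729 to 0.836 for Vamp3. In all, 2 of the 52 genes were positively and 2 negatively related to this score in the NAc (3.85% each). Over all genes the shares were 3.37% and 2.49%, so the members' counts are close to the background. The negative ones were Syt9 (r = -0.450), which was also higher in the NAc, and Snap47 (-0.423). Over the PFC libraries r was 0.476 for Stxbp3 and 0.066 for Vamp3. The part of oligodendrocytes in the region difference of Stxbp3 and Vamp3 was not tested. In the PFC, 8 of the 52 genes were positively and 2 negatively related to the same score (15.4% and 3.85%), against 4.5% and 3.9% of all genes. Vamp1 (r = 0.843), Syt2 (0.784), Snap25 (0.669) and Cplx1 (0.606) were the highest and Syt17 (-0.739) and Syt4 (-0.540) the lowest, and each kept its sign within each cohort.

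Pairs among the 10 core genes were also compared over libraries. In the NAc the pairs with the highest r were Syt1 with Snap25 (0.902, rho = 0.914) and Stx1a with Vamp2 (0.879, rho = 0.842), all genes that also rose with the cortical score. Without the 2 farthest libraries these r values were 0.889 and 0.871, and within cohorts they were 0.746 to 0.953. In the PFC they were Syt2 with Vamp1 (r = 0.892, rho = 0.893, and 0.881 without the 2 farthest libraries) and Syt2 with Cplx1 (r = 0.819, rho = 0.822, and 0.816 without those libraries). Within cohorts 1, 2 and 3, r was 0.952, 0.913 and 0.849 for Syt2 with Vamp1 and 0.684, 0.868 and 0.941 for Syt2 with Cplx1. Of the 45 pairs in each region, 25 were positive in the NAc and 19 positive and 1 negative in the PFC at an adjusted p under 0.05 (permutation test, 96 relations, smallest adjusted p 3.3e-05). Pairs of other genes were not computed, so these counts have no background to be set against. They do not show that the core genes vary together more than other genes do. Whether the regions differ in any of the r values was not tested.

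Pvalb, which marks fast-spiking interneurons and was picked after these pairs were seen, had 1.34 to 13.6 CPM in the NAc and 15.0 to 32.9 CPM in the PFC. In the PFC it had r = 0.83 with Syt2, 0.79 with Vamp1 and 0.77 with Cplx1 (rho 0.773, 0.734 and 0.760), and without the 2 farthest libraries r was 0.791, 0.739 and 0.742. In the NAc the same r values were 0.403, 0.607 and 0.585. Other interneuron markers did not all differ between the regions as Pvalb did. Lhx6 averaged 24.8 CPM in the NAc and 19.5 CPM in the PFC, and Vip 8.59 and 55.8 CPM. Among interneuron markers only Pvalb was compared with Syt2, Vamp1 and Cplx1, so its r values are not shown to be particular to it. Values of 2 genes in one library share its scaling and its tissue, so these relations describe the libraries and not a link between the genes.

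Chromosome complement was the only one of the 3 study factors with a called member. Between XX and XY mice (both gonad types together), 217 of 19292 genes were called in the PFC (1.12%), and 1 of the 51 family genes tested was among them, Cplx2 (chr13:54371349-54383917 on GRCm38, plus strand), which is on no sex chromosome. Its PFC level had a lowest, median and highest value of 788, 906 and 1095 CPM in 23 XX animals, against 813, 981 and 1122 CPM in 25 XY animals. The ranges overlapped almost entirely and the means were 914 ± 66.2 CPM in XX and 985 ± 73.1 CPM in XY (SD), a log2 fold change of -0.11 (SE 0.0286, adjusted p = 0.0289). By genotype, the XX groups averaged 896 CPM with stress and 955 CPM as controls, and the XXSry groups 910.1 and 899.6 CPM. The XY- groups averaged 956 CPM with stress and 961.6 CPM as controls, and the XY-Sry groups 1054 and 973 CPM, so XY-Sry animals with stress were the highest.

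This call was close to the threshold. It was lost when any of 8 single libraries was left out (adjusted p 0.052 to 0.0597, log2 fold change -0.1093 to -0.1036), namely XX control replicates 10 and 50, XX stress replicates 18 and 25, XY- control replicates 5 and 13, XY- stress replicate 31 and XY-Sry stress replicate 7. It held when any of the other 40 was left out. Within cohorts 1, 2 and 3 the log2 fold change was -0.14, 0.01 and -0.15, none of them called. Cplx2 also moved with the oligodendrocyte marker score in the PFC (r = 0.53, rho = 0.488), and those markers summed to 1029.7 ± 246 CPM in XX and 1021 ± 229 CPM in XY. In the NAc Cplx2 averaged 1001 ± 93.3 CPM in XX and 984 ± 106 CPM in XY and was not called, and the test of the difference between regions gave 0.14 (SE 0.0459, adjusted p = 0.942).

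**Figure D5:**
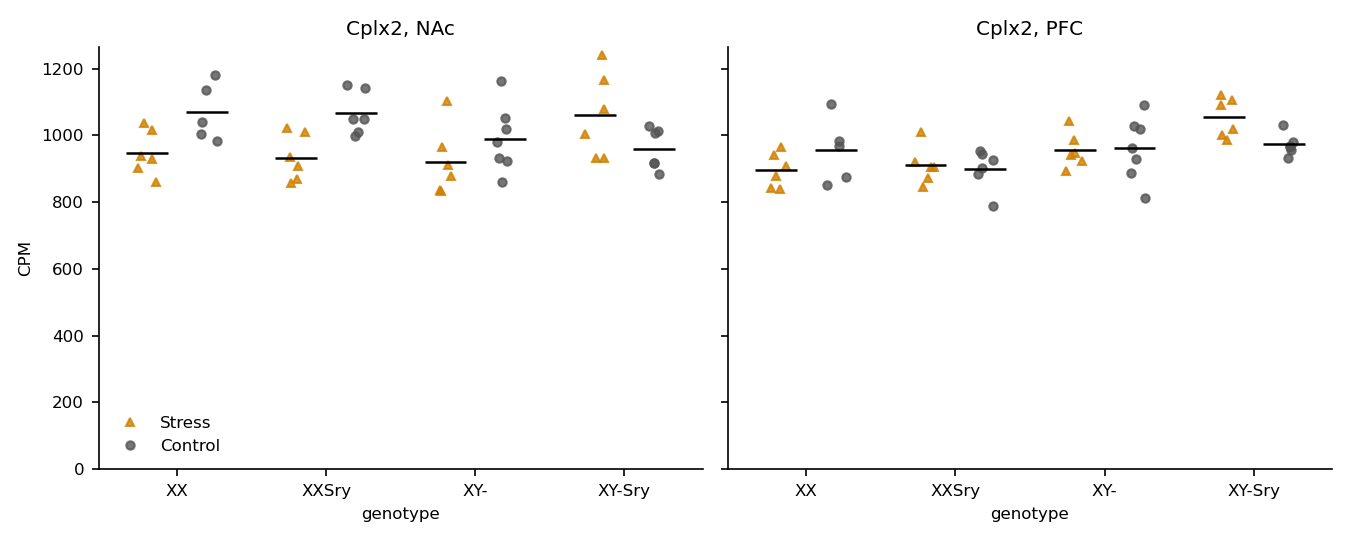
CPM of Cplx2 in each animal by genotype, with stress (triangles, left) and control (circles, right) in the NAc and the PFC; horizontal bars are group means and the axis starts at 0. In the PFC the XY-Sry animals with stress have the highest mean (1054 CPM), and in both regions the groups overlap.

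The next 2 members by p in the PFC were Syt4 (log2 fold change 0.09, SE 0.0252, adjusted p = 0.0638) and Syt9 (0.13, SE 0.0434, adjusted p = 0.16). DESeq2 called Cplx2 and Syt4 (adjusted p = 0.0122 and 0.0358). In all, 7 of 51 genes had an unadjusted p under 0.05, or, for all genes tested in the PFC, 11.6%. The median log2 fold change was 0.0047 over the 51 genes and 0.0009 over all genes. In the NAc, edgeR called 0 of 52 genes between XX and XY, where 0.584% of all genes were called, and DESeq2 called 0 as well. There 2 had an unadjusted p under 0.05 (5.97% of all genes), and the 3 with the smallest p were Syt12, which lacks calcium binding (0.15, SE 0.0474, adjusted p = 0.275), Stx17 (-0.07, adjusted p = 0.743) and Stx3 (-0.09, adjusted p = 0.874).

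Stress left no called member in either region. Between stress and control, edgeR called 0 of 51 PFC genes and 0 of 52 NAc genes, where 0% of all genes were called in each, and DESeq2 also called 0. In each region 4 family genes had an unadjusted p under 0.05, where the share over all genes was 5.73% (PFC) and 4.59% (NAc). In the PFC the 3 with the smallest p were Syt6, at 7.58, 14.6 and 26.8 CPM with stress and 7.74, 12.3 and 22.2 CPM in controls (24 animals each, log2 fold change 0.34, SE 0.137, adjusted p = 0.76), Syt5 (0.06, SE 0.0247) and Syt4 (-0.06, SE 0.0271). The stressed and control ranges of Syt6 overlapped over nearly their whole length. In the NAc they were Stx16 (0.09, SE 0.0296), Snap47 (-0.09, SE 0.0379) and Stxbp3 (0.14, SE 0.0567), each at an adjusted p of 0.997. The core genes showed the same overlap, as in Snap25 in the NAc, at 1287, 1670.4 and 2353 CPM with stress and 1237, 1832 and 2132 CPM in controls. The median log2 fold change over the family genes was 0.0187 for PFC libraries and -0.0089 for NAc libraries, and over all genes -0.0004 and 0.0016.

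Within single genotypes edgeR again called 0 members in both regions, where 0% of all genes were called, and DESeq2 called 0. In the PFC 0 to 5 family genes per genotype had an unadjusted p under 0.05, where 3.02 to 9.13% of all genes did, and in the NAc 1 to 6, where 2.49 to 6.2% of all genes did. The 3 with the smallest p in the PFC were Syt5 (0.09), Stx2 (0.14) and Syt13 (-0.05) in XX, Syt12 (0.18), Stxbp6 (-0.11) and Stxbp5l (0.12) in XXSry, Syt6 (0.63), Syt11 (0.08) and Stxbp5l (0.14) in XY-, and Syt4 (-0.15), Syt14 (-0.12) and Cplx1 (0.17) in XY-Sry, as log2 fold changes of stress over control. In the NAc they were Snap47 (-0.16), Vamp4 (0.14) and Cplx2 (-0.15) in XX, Cplx2 (-0.17), Stxbp3 (0.23) and Stx4a (0.15) in XXSry, Stx16 (0.16), Stx6 (-0.08) and Vamp9 (-0.51) in XY-, and Syt17 (-1.12), Snap47 (-0.19) and Syt1 (-0.19) in XY-Sry. Syt17 in XY-Sry NAc libraries (SE 0.414, adjusted p = 0.797) had a lowest, median and highest level of 5.02, 7.93 and 13.2 CPM with stress and 10.5, 18.4 and 21.7 CPM in controls, with overlap. The cortical marker sum of those libraries averaged 559 ± 279 CPM with stress and 770.0 ± 107 CPM in controls (448 ± 290.3 and 669 ± 110.2 CPM without Foxp2). With the cortical score as a covariate, an alternative chosen after the marker levels were seen, the log2 fold change of Syt17 was -0.63 (SE 0.252) and again not called.

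Gonads gave no called member either. Between testes and ovaries, edgeR and DESeq2 each called 0 family genes in both regions, where edgeR called 0.0467% of all PFC genes and 0.0102% of all NAc genes, and 1 of 51 and 2 of 52 had an unadjusted p under 0.05, where 6.74% and 9.28% of all genes did. The 3 with the smallest p were Syt16 (log2 fold change 0.05, SE 0.0173, adjusted p = 0.437), Vamp5 (-0.19) and Stx16 (0.03) in the PFC, and Stx12 (0.06, SE 0.0265, adjusted p = 0.509), Syt16 (0.10) and Vamp8 (-0.12) in the NAc. Syt16, which does not depend on calcium, averaged 103 ± 4.54 CPM with testes and 99.8 ± 4.34 CPM with ovaries in the PFC (24 animals each), and the ranges overlapped.

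No interaction was called among the family genes: edgeR and DESeq2 each called 0, where edgeR called 0% of all genes, and at most 1 family gene per interaction had an unadjusted p under 0.05, where 2.84 to 6.72% of all genes did. The members with the smallest p for a stress effect that depends on chromosomes were Syt16 (0.10), Cplx1 (-0.14) and Vamp5 (0.34) in the PFC and Cplx2 (-0.20, SE 0.0733, adjusted p = 0.987), Syt15 (-0.54) and Stx12 (0.09) in the NAc. For a stress effect that depends on gonads they were Syt12 (0.13), Stxbp6 (-0.10) and Cplx2 (0.10) in the PFC and Vamp8 (0.23), Stx6 (0.07) and Cplx2 (0.12) in the NAc. For a chromosome effect that depends on gonads they were Cplx2 (-0.12), Stx4a (-0.09) and Syt15 (-0.39) in the PFC and Stxbp5l (-0.23), Syt1 (-0.17) and Syt12 (-0.18) in the NAc. In XY-Sry NAc libraries Cplx2 averaged 1060.0 ± 127 CPM with stress and 961 ± 61.5 CPM in controls, while in XX it averaged 948 ± 67.7 CPM with stress and 1069 ± 86.0 CPM in controls, and the libraries of each pair overlapped.

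The effects of stress, chromosomes and gonads were also compared between the regions, and 0 of the 52 genes differed by edgeR or by DESeq2, where 0%, 0.0151% and 0% of all genes were called by edgeR. Those with the smallest p were Syt5 (-0.10), Stxbp3 (0.15) and Snap47 (-0.10) for stress, Cplx2 (0.14), Syt12 (0.12) and Stx12 (-0.07) for chromosomes, and Stx16 (-0.06), Snap23 (0.09) and Stx8 (0.08) for gonads, as differences of log2 fold changes (NAc minus PFC). Unadjusted p was under 0.05 in 7, 1 and 1 of the 52, and in 4.97%, 4.79% and 5.25% of all genes.

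Other genes of the release machinery also differed between the regions, in both directions. Of 40 other genes listed for vesicle priming, docking, recycling and the active zone, all 40 were called, 8 higher in the NAc and 32 lower, against 85.9% of all genes called, 44% higher and 41.9% lower. Their median log2 fold change was -0.70, against 0.02 for all genes. The lowest were Doc2a, a calcium-binding release protein (-2.44, SE 0.0698), Bsn, the active zone scaffold bassoon (-1.77, SE 0.0509), Rph3a, an effector of Rab3 (-1.71, SE 0.0598), and Sv2b, a synaptic vesicle glycoprotein (-1.52, SE 0.0661). The highest were relatives of some of them: Sv2c (3.55, SE 0.0374), Doc2b (2.64, SE 0.0429) and the priming factor Unc13c (2.36, SE 0.0499), followed by Doc2g (0.56, SE 0.159). None of the 40 was called for stress, chromosomes or gonads in either region by edgeR. In the PFC 1, 7 and 1 had an unadjusted p under 0.05, where 5.73%, 11.6% and 6.74% of all genes did. For the NAc it was 1, 2 and 2, where 4.59%, 5.97% and 9.28% of all genes did.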

How the data were processed

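The authors deposited 1 table of raw counts per gene for each region, from polyA-selected libraries, per the labels' protocols. Per the submitters' processing notes HISAT2 2.2.0 on GRCm38 (mm10) was used with Trimmomatic 0.38, FastQC 0.11.9, DESeq2 and edgeR. No source used here names the counting tool, its strand setting or the annotation. Genes were matched to GENCODE M21. All columns were mapped to samples by their titles.

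Differences were tested with edgeR 4.0.16 (R 4.3.3): TMM scaling, filterByExpr, a robust quasi-likelihood fit of 8 group means with a cohort term in each region (19292 genes in the PFC, 19684 in the NAc), and 1 fit of all 96 libraries with the animal as a block for NAc minus PFC (19918 genes). P-values were adjusted by Benjamini-Hochberg over all genes tested, with a threshold of 0.05, and the SE is the log2 fold change divided by the root of F. Levels are CPM with TMM scaling over the 96 libraries. Correlations with marker scores were adjusted over all genes but the markers, and ratios were computed per kilobase of exon. Both were tested by permutation (Python 3.11.15, scipy 1.17.1). DESeq2 1.42.0, RLE scaling, no filter, no cohort term, single cohorts, no animal block and leaving out libraries were alternatives. The fits were tested on simulated data.

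The 2 libraries of an animal were paired by the animal number in their titles. The median correlation of their deviations from group means was 0.0923 over 10496 genes, and 22 of 48 pairs were above 0.1. For 5 of the 48 animals the NAc library correlated best with the PFC library of the same animal. The pairing therefore rests on the titles. No 2 libraries of a group agreed within sampling noise (lowest chi-square per degree of freedom 6.6). The members and lists were chosen with earlier results of these data known. Genes were named by a rule: the 10 neuronal release core genes, the members called in a contrast or, where none was called, the 3 with the smallest p, and the 10 called members at each end of the log2 fold changes between regions. Of these, 2 members are counted in the totals and not reported singly here. Members named outside it were named after their values were seen, to account for every member. Counting intervals are not given because each value rests on replicate libraries.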

Additional observations from a re-analysis of the deposited data

Results flagged for a closer look

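Among 168 groups of libraries checked for core and named genes, 10 held a library far from the rest of its group, where chance alone flags about 5% of groups. In the NAc, XY-Sry stress replicate 7 had 2353 CPM of Snap25 (the other 5 libraries 1405 to 1724) and 69.42 CPM of Stx1a (28.51 to 41.66), and it was the NAc library with the highest cortical marker score (5.53). Also in the NAc, XX control replicate 10 had 432.9 CPM of Cplx1 (274.3 to 313.6) and 255.5 CPM of Snap47 (202.4 to 210.8), XY- stress replicate 15 had 61.33 CPM of Syt2 (17.5 to 31.82), XXSry stress replicate 28 had 867.5 CPM of Vamp2 (673.3 to 746.1) and XY- control replicate 16 had 77.49 CPM of Vamp1 (39.7 to 53.22). In the PFC, XXSry stress replicate 4 had 43.72 CPM of Syt2 (18.59 to 27.96) and 111.8 CPM of Vamp1 (73.43 to 85.14), and XY- control replicate 16 had 66.15 CPM of Stxbp5l (90.76 to 104.1). What sets these libraries apart was not tested.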

How the results depend on the processing

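The count called between NAc and PFC was 40 to 50 over DESeq2, RLE scaling, no filter, control animals only and the animals of each cohort, and 48 to 51 when each XX control animal was left out. Without the replicate block for the animal it was 49 (19 higher, 30 lower). Syt2 was called with DESeq2 (0.16, adjusted p = 0.0466), without XX control replicate 2 (0.18) or 35 (0.18), and without the 12 animals with the most cortical marker RNA (0.23), an alternative chosen after seeing the data. Cplx2 was -0.0062 between regions in cohort 3 alone. Between XX and XY in the PFC, DESeq2 called 2 members, each single cohort called 0, and leaving out each library called 0 to 2. Within cohort 2 the sign turned for Cplx2 between XX and XY in the PFC (0.0102), Syt6 under stress in the PFC (-0.0502) and Vamp8 between testes and ovaries in the NAc (0.0053), and within cohort 3 for Stxbp3 under stress in the NAc (-0.0636). The cause was not tested. Single cohorts hold fewer samples. For the other factor contrasts every setting run called 0 members, including the NAc fits with the cortical score as a covariate, which were also added after seeing the data.

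Whole tissue, uneven cohorts and unstated strand use limit these values. Genes near 0 counts, Cplx4 and Stx11, are limited by depth. Replicates are separate animals.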
